A study of Mus musculus with 6 samples.

Results

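The genes described here set or report the epithelial or mesenchymal state of a cell, the axis along which epithelial-mesenchymal transition (EMT) runs. They were chosen by symbol, with earlier results of these data known. The EMT-inducing transcription factor genes are Snai1, Snai2, Zeb1, Zeb2 and Twist1. The others are the epithelial regulators Esrp1 and Ovol1 and the state genes Cdh1, Cdh2 and Vim. All 10 were found among the 32061 genes of the count table, and all 10 passed the filter on low counts. Messenger RNA was measured by poly-A RNA-seq in cultured mouse biliary epithelial cells, which line the bile ducts. The cells were grown from hand-picked bile ducts as organoids, passaged 4 to 5 times, and finally plated flat on collagen. The 3 cilia-depleted samples had received 4OHT (4-hydroxytamoxifen), which is commonly used to activate a tamoxifen-dependent Cre recombinase, and their columns are named KO. The 3 cilia-competent samples had not received 4OHT, and their columns are named WT. The labels give no deleted allele, Cre driver, strain or age. No group received 4OHT and kept its cilia. The effects of 4OHT and of loss of the primary cilium, the sensory antenna of the cell surface, therefore cannot be told apart. Separate animals or cultures are not named for the 3 samples of either group, and p-values therefore reflect sample-to-sample spread that could be technical.

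SNAIL and ZEB proteins are zinc-finger repressors, and TWIST proteins are helix-loop-helix factors. All bind E-boxes in DNA, and SNAIL and ZEB repress the gene for E-cadherin, the adhesion molecule of epithelial junctions. ESRP1 is a splicing regulator that keeps epithelial isoforms in use, and OVOL1 is a zinc-finger repressor that holds back EMT factors. In bile duct epithelium, partial EMT programmes have been discussed in relation to injury and fibrosis.

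Library totals were between 26293486 and 36998935 counts for depleted cells and between 32199606 and 36093068 for competent cells. Wdr35, the ciliary transport gene taken as the deleted gene from knowledge of the study, had 29.3, 28.5 and 26.2 CPM (counts-per-million units, scaled between libraries) in depleted samples, against 35.6, 32.5 and 31.9 CPM in competent samples (log2 change -0.25, adjusted p = 0.00245). A whole-gene count does not show whether an exon was lost. The summed level of the 8 biliary markers was 4272 to 4524 CPM in depleted samples and 5952 to 6041 CPM in competent samples, and none of them was at 0. Krt19, a defining biliary keratin, was low at 8.33 ± 1.25 CPM in depleted and 12.5 ± 1.13 CPM in competent cells (SD, n = 3 each). The summed level of 12 stellate cell and fibroblast markers was 3.85 to 5.07 CPM in depleted samples and 3.31 to 3.90 CPM in competent samples. Col1a2, Col3a1 and Lum had no count in any sample, and Dcn, Pdgfrb, Pdgfra, Des, Lrat and Thy1 had at most 10 counts over all 6. The remaining markers were Col1a1, Reln and Acta2. Their means were 3.04, 1.01 and 0.344 CPM in depleted and 1.38, 0.83 and 1.29 CPM in competent cells. The summed level of 8 macrophage or leukocyte markers was 45.5 to 51.3 CPM in depleted and 50.6 to 50.9 CPM in competent samples, most of it from Csf1r, while Adgre1, Clec4f, Lyz2, Cd3e and Cd79a had at most 10 counts over all 6. Endothelial markers summed to at most 0.561 CPM in depleted and 0.396 CPM in competent samples. Of 7 hepatocyte markers, which summed to 240 to 248 CPM in depleted and 214 to 237 CPM in competent samples, Cyp3a11 was at 0 throughout. Most of that sum came from the transcription factor gene Hnf4a, at 227 ± 4.52 CPM in depleted and 203 ± 8.35 CPM in competent cells, while Alb, which encodes albumin, was at 2.57 ± 0.39 CPM in depleted and 2.61 ± 0.718 CPM in competent cells (SD, n = 3 each).

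The comparison asked which of these genes differ between cilia-depleted and cilia-competent cells. In depleted cells the EMT factor genes Snai1, Snai2 and Zeb1 were 2.40-fold, 1.93-fold and 1.76-fold higher, and Zeb2 was 1.31-fold higher. The splicing regulator gene Esrp1 and the cadherin gene Cdh2 were each about 1.4-fold lower (1.42-fold and 1.41-fold), and Cdh1, which encodes E-cadherin, was 1.14-fold lower. Vim, which encodes the mesenchymal intermediate filament vimentin, was 1.10-fold higher. In these bulk samples, a change in the number of cells that express a gene and a change in RNA per cell cannot be told apart. By count, 5 of the 10 genes rose, 3 fell, and Twist1 and Ovol1 did not pass an adjusted p of 0.05 in edgeR's quasi-likelihood test. Over all 13839 genes tested, 69.2% passed that threshold, 34.9% higher and 34.3% lower in depleted cells, so a count of 8 of 10 is near the share among all genes. Depleted and competent samples were fully separated for 9 of the 10 genes, against 72.5% of all genes. The median log2 change was -0.03 over the 10 genes and -0.01 over all genes. Changes above 1.5-fold that also passed an adjusted p of 0.05 were found for 3 of the 10 genes and for 28.4% of all genes. Such changes above 2-fold were found for 1 of the 10, Snai1, and for 9.87% of all genes.

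**Figure D1:**
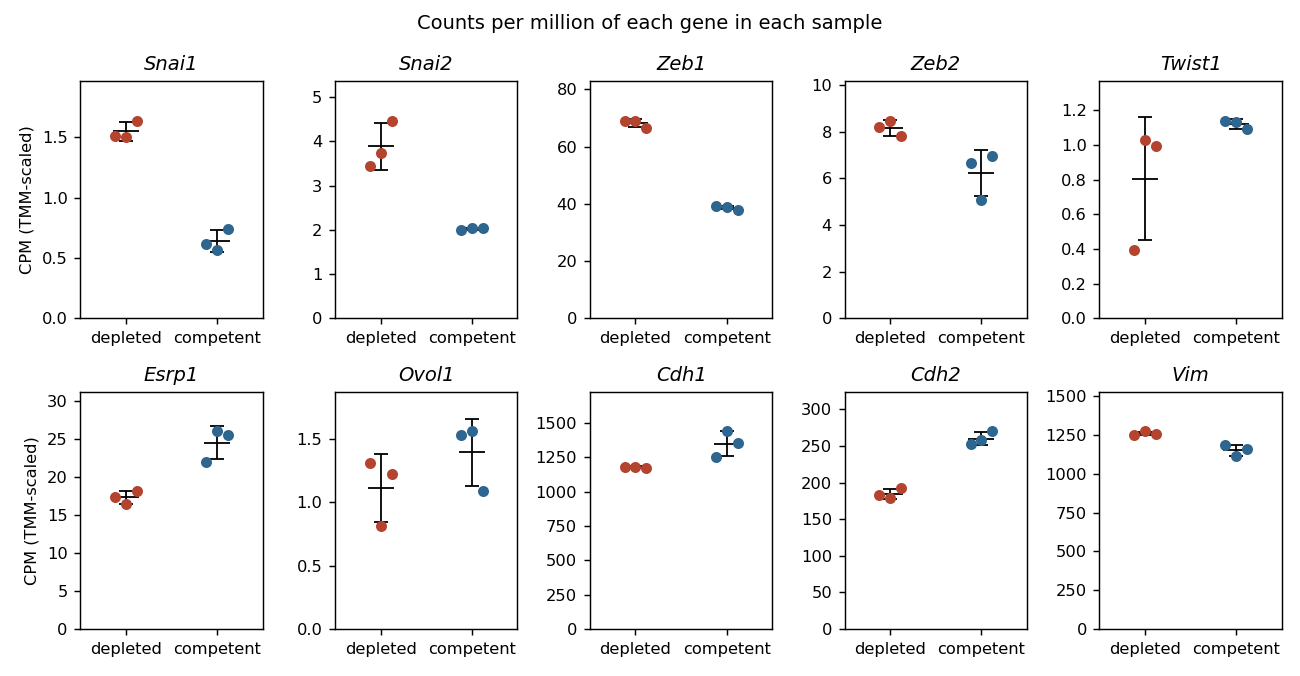
Level of each of the 10 genes in each sample, as TMM-scaled CPM on a linear axis from 0, with depleted samples in red and competent samples in blue; bars give the mean and SD of 3 samples. Depleted samples lie above all competent samples for Snai1, Snai2, Zeb1, Zeb2 and Vim, below them for Twist1, Esrp1, Cdh1 and Cdh2, and overlap them for Ovol1.

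Snai1 (ENSMUSG00000042821; GRCm38 chromosome 2, 167538195 to 167542814, plus strand) encodes SNAIL, a repressor known for silencing the E-cadherin gene. Snai1 had 1.51, 1.5 and 1.64 CPM in depleted samples, against 0.617, 0.566 and 0.744 CPM in competent samples. Every depleted sample was above every competent sample, although the raw counts were small, at 38, 48 and 58 in depleted and 21, 20 and 28 in competent samples. The rise was 1.26 on the log2 scale (SE 0.22, adjusted p = 0.000181), the largest of the 10 genes. Snai2 (ENSMUSG00000022676; chromosome 16, 14705852 to 14709385, plus strand) encodes the related repressor SLUG. Snai2 had 3.45, 3.74 and 4.47 CPM in depleted samples, against 2.00, 2.04 and 2.04 CPM in competent samples. The groups did not overlap, and the spread was wider in depleted cells, with a coefficient of variation of 13.6% in depleted and 1.28% in competent samples. The rise in Snai2 was 0.95 on the log2 scale (SE 0.15, adjusted p = 7.83e-05). With the trend between change and transcript length removed from each library, the log2 changes were 1.38 for Snai1 and 0.96 for Snai2. The ratio of Snai1 to Snai2 counts within a sample was 0.437, 0.400 and 0.367 in depleted and 0.309, 0.278 and 0.364 in competent samples. The lowest depleted and highest competent ratios, 0.367 and 0.364, nearly met. An exact two-sided permutation test gave p = 0.1, the smallest possible for 3 samples against 3, and p = 0.2 with a pseudocount of 1, so a separation was not resolved.

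Promoter windows of 300 bases, from 250 before to 50 after the start, were taken from RefSeq on GRCm38.p6 and were found for 4 of the 10 genes, in 7 windows. The windows of Snai1 and Twist1, a pair of E-box-binding factors of low level that did not change alike, and of Vim are shown 5′ to 3′ on the gene's strand, with capitals marking the E-box letters CACCTG, which SNAIL and ZEB proteins recognise, on either strand.
Snai1 at chr2:167537945-167538244, plus strand: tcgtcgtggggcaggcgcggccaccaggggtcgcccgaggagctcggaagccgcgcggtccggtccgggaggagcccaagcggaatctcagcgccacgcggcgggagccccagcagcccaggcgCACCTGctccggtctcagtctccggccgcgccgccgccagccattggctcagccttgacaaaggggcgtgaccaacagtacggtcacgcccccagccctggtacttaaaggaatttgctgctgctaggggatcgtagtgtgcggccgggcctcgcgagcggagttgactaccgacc
Twist1 at chr12:33957421-33957720, plus strand: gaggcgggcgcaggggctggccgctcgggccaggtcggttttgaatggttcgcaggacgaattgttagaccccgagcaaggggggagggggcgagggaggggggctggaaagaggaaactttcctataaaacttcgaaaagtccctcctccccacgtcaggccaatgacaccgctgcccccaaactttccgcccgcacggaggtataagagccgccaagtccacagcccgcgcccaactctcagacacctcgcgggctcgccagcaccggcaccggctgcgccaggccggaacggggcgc
Vim at chr2:13574061-13574360, plus strand: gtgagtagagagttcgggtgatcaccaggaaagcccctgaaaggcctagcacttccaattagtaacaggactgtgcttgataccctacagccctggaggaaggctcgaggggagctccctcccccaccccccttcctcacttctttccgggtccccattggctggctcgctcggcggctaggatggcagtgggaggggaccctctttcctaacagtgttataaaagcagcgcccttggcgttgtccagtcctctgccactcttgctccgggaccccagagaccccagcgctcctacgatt
The Snai1 window held 1 match, beginning 126 bases before the start. The Twist1 and Vim windows and the 4 windows of Zeb2 held none, and 20.2% of all 32851 windows held at least 1. A match is a description of the letters and was not measured as a binding site here.

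Zeb1 (ENSMUSG00000024238; chromosome 18, 5591860 to 5775467, plus strand) encodes a zinc-finger and homeodomain repressor of epithelial genes. Zeb1 had 69.1, 69.0 and 66.5 CPM in depleted samples, against 39.3, 38.8 and 38.0 CPM in competent samples. The groups stood far apart relative to a spread of at most 2.22% of the mean. The log2 change was 0.82 (SE 0.045, adjusted p = 3.25e-09), and 0.58 once the length trend was removed. Zeb2 (ENSMUSG00000026872; chromosome 2, 44983632 to 45117395, minus strand) encodes its close relative, also called SIP1. Zeb2 had 8.20, 8.48 and 7.82 CPM in depleted samples, against 6.64, 5.09 and 6.96 CPM in competent samples. All depleted samples were above all competent ones, and competent replicate 2 was the lowest. The log2 change was 0.39 (SE 0.12, adjusted p = 0.0106). Without competent replicate 2 it was 0.25 (adjusted p = 0.0475), and after removal of the length trend it was 0.08 (adjusted p = 0.602), so the call was lost under that correction.

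Twist1 (ENSMUSG00000035799; chromosome 12, 33957671 to 33959829, plus strand), a mesodermal factor that induces EMT, was the only one of the 5 EMT factor genes with a lower fitted level. Twist1 had 0.396, 1.03 and 0.991 CPM in depleted samples, against 1.14, 1.13 and 1.09 CPM in competent samples. Every depleted sample was below every competent sample, but depleted replicate 1, with 10 counts, stood apart from the 33 and 35 counts of the other depleted samples. The log2 change was -0.43 with a 95% interval of -1.05 to 0.20 (adjusted p = 0.205), and without single samples it ranged between -0.62 and -0.15. The interval holds both a decrease and a small increase, so the direction of Twist1 was not resolved at this depth.

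Esrp1 (ENSMUSG00000040728; chromosome 4, 11331933 to 11386783, minus strand) had 17.3, 16.4 and 18.2 CPM in depleted samples, against 22, 26 and 25.5 CPM in competent samples. The groups did not overlap. Esrp1 fell by 0.50 on the log2 scale (SE 0.074, adjusted p = 4.04e-05), and by 0.67 after the length correction. Gene counts do not resolve the splice isoforms that ESRP1 controls. Ovol1 (ENSMUSG00000024922; chromosome 19, 5549136 to 5560646, minus strand) had 1.31, 0.811 and 1.22 CPM in depleted samples, against 1.53, 1.56 and 1.09 CPM in competent samples. The Ovol1 groups overlapped, and the log2 change was -0.33 with a 95% interval of -0.85 to 0.20 (adjusted p = 0.248). Genes on the opposite strand cover 22% of the exon length of Ovol1 and the strand setting of the counting is not given in the sources used here, so the Ovol1 values are uncertain.

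Cdh1 (ENSMUSG00000000303; chromosome 8, 106603351 to 106670246, plus strand) was among the abundant messages. Cdh1 had 1182, 1180 and 1174 CPM in depleted samples, against 1254, 1439 and 1354 CPM in competent samples. The depleted samples were tightly grouped and lay just below the lowest competent sample. Cdh1 fell by 0.19 on the log2 scale (SE 0.052, adjusted p = 0.00424), or by 0.39 with the length trend removed, and in a test against a change of 1.2-fold it did not pass (adjusted p = 0.904). Cdh2 (ENSMUSG00000024304; chromosome 18, 16588877 to 16809246, minus strand) encodes N-cadherin, a mesenchymal marker in many tissues that liver epithelium also carries. Cdh2 had 183, 179 and 192 CPM in depleted samples, against 252, 258 and 270 CPM in competent samples. The groups did not overlap. Cdh2 fell by 0.49 on the log2 scale (SE 0.045, adjusted p = 3.93e-07), or by 0.71 with the length trend removed. Both cadherin genes therefore fell, and the count ratio of Cdh1 to Cdh2 was 6.46, 6.61 and 6.13 in depleted samples, against 4.98, 5.57 and 5.02 in competent samples. That ratio was 1.23-fold higher in depleted cells without overlap between the groups (exact two-sided permutation p = 0.1, the smallest possible). Since this ratio is taken within a library, it does not depend on the scaling between libraries.

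Vim (ENSMUSG00000026728; chromosome 2, 13573927 to 13582826, plus strand) had 1254, 1275 and 1255 CPM in depleted samples, against 1185, 1113 and 1158 CPM in competent samples. Every depleted sample was above every competent sample. The log2 change of Vim was 0.13 (SE 0.043, adjusted p = 0.0153). The call was lost with upper-quartile scaling (log2 change 0.08, adjusted p = 0.117), without depleted replicate 2 (0.12, adjusted p = 0.0658), without competent replicate 2 (0.10, adjusted p = 0.0802) and without competent replicate 3 (0.13, adjusted p = 0.0527). The count ratio of Vim to Cdh1 was 1.06, 1.08 and 1.07 in depleted samples, against 0.945, 0.773 and 0.855 in competent samples. It was 1.25-fold higher in depleted cells without overlap (exact two-sided permutation p = 0.1, the smallest possible). Mean Vim was 1262 ± 12 CPM in depleted and 1152 ± 36.5 CPM in competent cells (SD, n = 3 each). Which cells carried the Vim RNA was not tested.

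**Figure D2:**
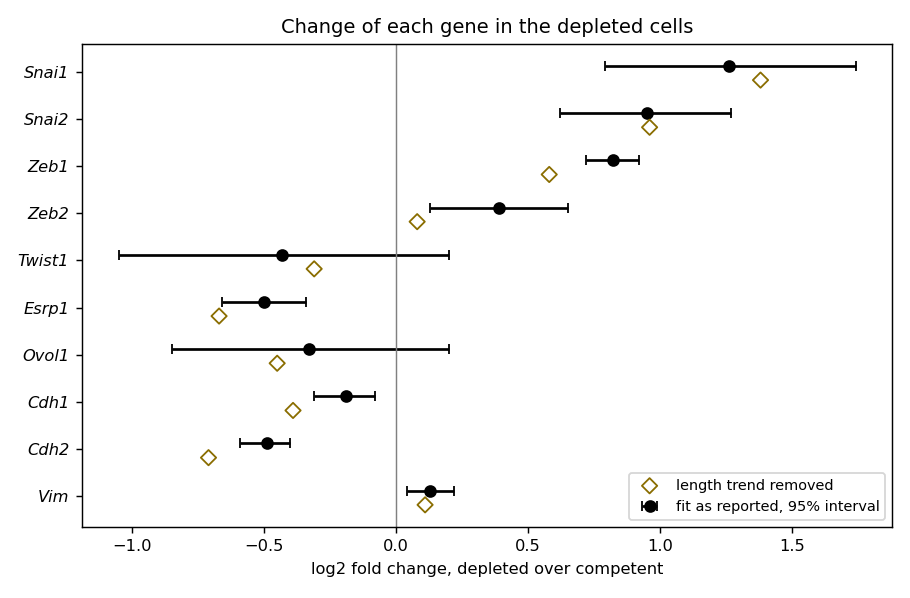
Log2 fold change of depleted over competent cells for each of the 10 genes, with filled points and 95% intervals from the edgeR fit and open diamonds for the values with the transcript-length trend removed. The Snai1, Snai2 and Zeb1 points stay right of 0 and the Esrp1, Cdh1 and Cdh2 points left of it in both, while the Zeb2 diamond lies at 0.08.

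Levels of different genes were compared as CPM per kilobase of exon, with all annotated exons of a gene merged. In depleted cells the order was Vim (266 ± 2.52), Cdh1 (258 ± 0.996), Cdh2 (22.9 ± 0.819), Zeb1 (6.64 ± 0.148), Esrp1 (2.74 ± 0.141), Snai2 (1.92 ± 0.262), Snai1 (0.955 ± 0.0505), Twist1 (0.495 ± 0.218), Zeb2 (0.409 ± 0.0167) and Ovol1 (0.319 ± 0.0759). In competent cells Cdh1 (295 ± 20.3) was above Vim (243 ± 7.69), followed by Cdh2 (32.2 ± 1.14), Esrp1 (3.89 ± 0.341) and Zeb1 (3.77 ± 0.062). Snai2 (1.00 ± 0.0129), Twist1 (0.689 ± 0.0181), Ovol1 (0.399 ± 0.0751), Snai1 (0.396 ± 0.0565) and Zeb2 (0.312 ± 0.05) followed (CPM per kilobase, SD, n = 3 each). In depleted cells the samples of Twist1 overlapped those of Zeb2 and Ovol1. In competent cells Ovol1 overlapped Snai1 and Zeb2, and Esrp1 overlapped Zeb1, so these neighbours did not differ beyond their spread. The level of Zeb1 per length was 2.43 times that of Esrp1 in depleted cells and 0.975 times in competent cells. The level of Vim per length was 1.03 times that of Cdh1 in depleted and 0.827 times in competent cells, but 2.16 and 1.73 times per kilobase of the longest coding transcript, so the order of Vim and Cdh1 depends on the length used. The place of Zeb2 does too. Per kilobase of that transcript Zeb2 stood at 0.895 in depleted cells, above Twist1 (0.495) and Ovol1 (0.374), and at 0.683 in competent cells, above Ovol1 (0.468) and Snai1 (0.396). Zeb1 and Esrp1 also changed places in competent cells, at 6.67 and 6.34.

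**Figure D3:**
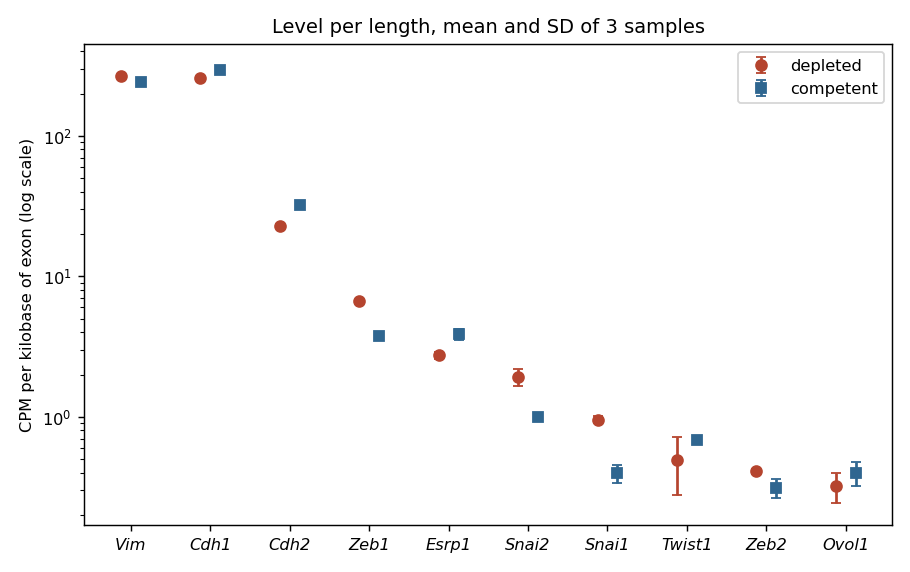
Level per length of the 10 genes, as CPM per kilobase of merged exon on a log axis, with depleted cells as red circles and competent cells as blue squares; error bars are the SD of 3 samples. Vim, Cdh1 and Cdh2 lie far above the transcription factor genes, with 22.9 to 266 in depleted cells against 6.64 for the highest factor, Zeb1.

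Other genes of the same pathway were read from lists made by role, with earlier results of these data known. Over all genes tested, 34.9% rose and 34.3% fell, and the count of each list is to be read beside these shares. Of 12 other EMT transcription factor genes, 9 had enough counts to test, of which 5 rose, 1 fell and 3 missed the threshold; their median log2 change was 0.44, and 0.23 with the length trend removed. Hmga2, a chromatin protein of embryonic and invasive cells, was at 87.6 ± 5.59 CPM in depleted and 31.9 ± 2.32 CPM in competent cells (SD, n = 3 each; log2 change 1.46, adjusted p = 2.60e-10). Sox4, a factor that acts upstream of EMT genes, was at 1294 ± 44.9 CPM in depleted and 617 ± 9.17 CPM in competent cells (log2 change 1.07, adjusted p = 1.97e-10), although opposite-strand genes cover 54.6% of its exons. Twist2 rose 1.74-fold, with opposite-strand genes over 46.5% of its exons. Tcf4, an E-protein partner of TWIST, rose 1.23-fold, but its log2 change was -0.01 with the length trend removed. Foxc1, chosen after its values were seen, rose by 0.55 on the log2 scale, a call lost without depleted replicate 2 (0.42) and with the length trend removed (0.32). Prrx1, Foxc2 and Gsc were too low to test.

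Of 10 other regulators of the epithelial state, 8 were tested, of which 3 rose, 2 fell and 3 missed the threshold (median 0.07 on the log2 scale, and -0.07 with the length trend removed). Esrp2, the paralogue of Esrp1, was at 44.3 ± 4.06 CPM in depleted and 60.9 ± 3.77 CPM in competent cells (SD, n = 3 each; log2 change -0.46, adjusted p = 3.01e-05), so both splicing regulator genes fell. Grhl3, a grainyhead factor gene chosen after its values were seen, had 0.310 ± 0.119 CPM in depleted and 0.632 ± 0.131 CPM in competent cells and fell by 1.01 on the log2 scale, a call lost without depleted replicate 2 (-0.74) or competent replicate 3 (-0.85). The epithelial ETS factor genes Elf3 and Ehf went the other way, 2.23-fold and 1.23-fold higher in depleted cells. With the length trend removed, the log2 change was 1.15 for Elf3 but 0.10 for Ehf (adjusted p = 0.0377). Elf5, another ETS gene of the list, was too low to test. Rbm47, an RNA-binding protein gene of epithelia, rose 1.97-fold.

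All 25 epithelial junction and polarity genes were tested, with 7 rising, 15 falling and 3 short of the threshold, and their median log2 change was -0.29, and -0.38 with the length trend removed. Epcam, an epithelial adhesion molecule, was at 139 ± 10.4 CPM in depleted and 259 ± 5.02 CPM in competent cells (SD, n = 3 each; log2 change -0.90, adjusted p = 5.97e-09). Ocln, which encodes the tight junction protein occludin, fell 1.95-fold. In the other direction, Cldn4, which encodes a tight junction claudin, was at 2481 ± 186 CPM in depleted and 1160 ± 77.4 CPM in competent cells (log2 change 1.10, adjusted p = 4.70e-09), and the polarity gene Pard6b rose 1.85-fold. The share that fell, 15 of 25, stands beside 34.3% of all genes. Of 8 catenins and cadherin partners tested, 1 rose, 3 fell and 4 missed the threshold (median -0.15 on the log2 scale, and -0.40 with the length trend removed). Ctnna1 and Ctnnb1, which encode the alpha- and beta-catenin that tie cadherins to actin, had log2 changes of -0.27 and -0.26 and both fell, and Vezt, which encodes the junction protein vezatin, fell 1.31-fold. Cbll1, which encodes a ubiquitin ligase of E-cadherin, rose 1.35-fold. With the length trend removed, 7 of these 8 genes fell. Over all 13839 genes tested, 5493 fell under that correction, against 4744 without it.

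Of 8 other cadherin genes, 6 were tested, of which 3 rose, 2 fell and 1 missed the threshold (median -0.02 on the log2 scale). Their median was -0.25 with the length trend removed. Cdh6, the most abundant of the 8, was at 759 ± 29.4 CPM in depleted and 659 ± 59.2 CPM in competent cells (SD, n = 3 each; log2 change 0.20, adjusted p = 0.00895). The Cdh6 log2 change was 0.13 without competent replicate 1 and -0.09 with the length trend removed. Cdh3, which encodes P-cadherin, rose 1.24-fold, while Cdh17 fell 1.54-fold and Cdh13 fell by 0.24 on the log2 scale. Of 22 mesenchymal state genes, 12 were too low to test, 3 rose, 3 fell and 4 missed the threshold (median -0.06 on the log2 scale). Their median was -0.27 with the length trend removed. Fn1, which encodes fibronectin, was at 1226 ± 43.3 CPM in depleted and 892 ± 125 CPM in competent cells (log2 change 0.46, adjusted p = 0.000176), and 0.17 after the length correction. Loxl2, a collagen cross-linking enzyme gene, fell 1.09-fold, a call lost without depleted replicate 3 (log2 change -0.09) or competent replicate 3 (-0.11). The other calls were of low genes, chosen after their values were seen. Col1a1, a fibrillar collagen gene, rose by 1.13 on the log2 scale, and Sparc, a matrix glycoprotein gene, fell by 0.75. Cdh11, a mesenchymal cadherin gene, had 1.65 ± 0.245 CPM in depleted and 0.570 ± 0.0481 CPM in competent cells (log2 change 1.52, adjusted p = 5.43e-05). Acta2, which encodes smooth muscle actin, had 0.344 ± 0.127 CPM in depleted and 1.29 ± 0.404 CPM in competent cells (log2 change -1.93, adjusted p = 0.000286).

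Of 10 intermediate filament genes, the family of Vim, 8 were tested, of which 1 rose, 3 fell and 4 missed the threshold (median -0.21 on the log2 scale). Their median was -0.32 with the length trend removed. Krt7, a biliary keratin gene, was at 2471 ± 51.2 CPM in depleted and 3150 ± 67.7 CPM in competent cells (SD, n = 3 each; log2 change -0.35, adjusted p = 8.93e-06). Krt20 and Krt19 fell 1.55-fold and 1.49-fold. Krt23 rose by 0.21 on the log2 scale, a call lost without depleted replicate 1 (log2 change 0.17), depleted replicate 3 (0.17), competent replicate 1 (0.18) or competent replicate 3 (0.17). Of 14 repressor partners of SNAIL and ZEB, 5 rose, 6 fell and 3 missed the threshold (median -0.08 on the log2 scale, and -0.21 with the length trend removed). The histone deacetylase genes Hdac2 and Hdac1 fell 1.49-fold and 1.40-fold and the corepressor gene Rcor1 fell 1.42-fold, whereas the Polycomb gene Eed rose 1.46-fold. The others that rose, chosen after their values were seen, were Sin3a and Ezh2 (log2 changes 0.40 and 0.31), Smarca4 (0.16) and Kdm1a (0.11). With the length trend removed, Smarca4 and Kdm1a were at -0.10 and -0.01. The Smarca4 call was lost without depleted replicate 1 (0.11) or competent replicate 1 (0.12), and the Kdm1a call without depleted replicate 2 (0.11) or competent replicate 2 or 3 (0.11 and 0.10). Of 14 regulators of SNAIL protein stability, 8 rose, 3 fell and 3 missed the threshold (median 0.16 on the log2 scale, and -0.04 with the length trend removed). The deubiquitinase gene Usp37 rose 1.79-fold and Btrc, which encodes a ubiquitin ligase subunit, rose 1.27-fold, while the ubiquitin ligase gene Fbxo45 fell 1.36-fold and the phosphatase gene Ctdsp1 fell 1.26-fold. Gsk3b, the kinase gene whose product marks SNAIL for degradation, was chosen after its values were seen. Its log2 change was 0.16 (adjusted p = 0.00858), but 0.13 (adjusted p = 0.0567) without depleted replicate 2 and -0.14 (adjusted p = 0.00418) with the length trend removed, so its direction depends on that correction. Ppil2, also chosen after its values were seen, fell by 0.12 on the log2 scale, a call lost without depleted replicate 1 or 3 or competent replicate 1 or 3 (log2 changes between -0.12 and -0.11). Protein levels were not measured here.

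**Figure D4:**
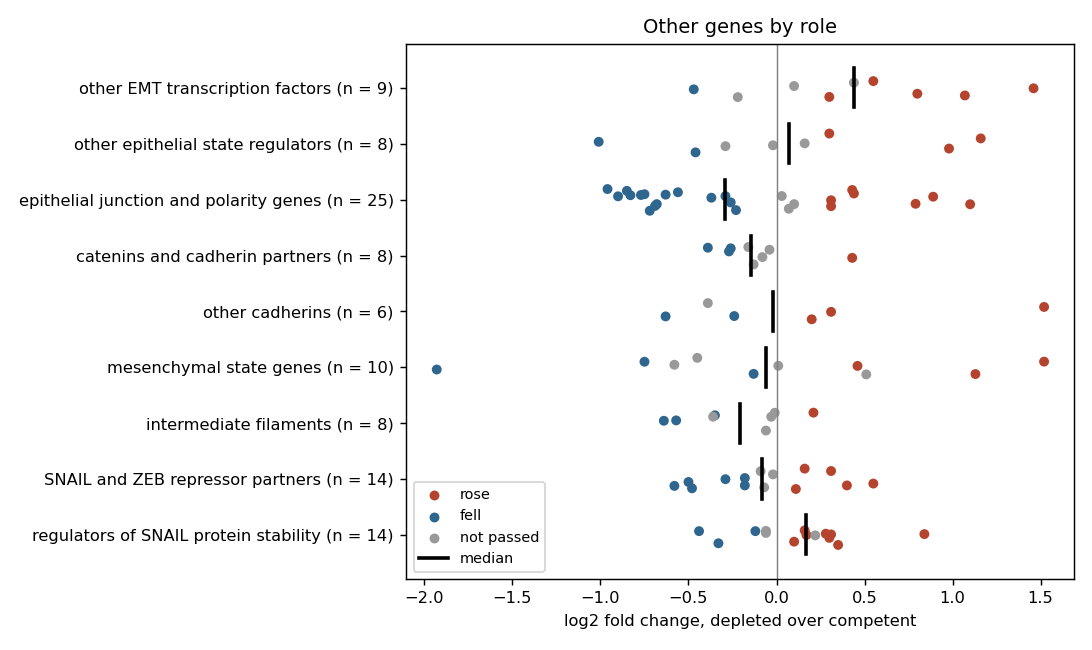
Log2 fold change of depleted over competent cells for the tested genes of each list by role, coloured by whether the gene rose, fell or did not pass an adjusted p of 0.05; vertical bars mark list medians. Other EMT factor genes have the highest median, 0.44, and epithelial junction and polarity genes the lowest, -0.29; with the length trend removed the medians are 0.23 and -0.38, and catenins and cadherin partners are lowest at -0.40.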

How the data were processed

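The authors deposited unnormalized raw counts for 32061 genes in a table with a column for each of the 6 samples. Columns named WT were read as competent and KO as depleted. The build was GRCm38, and STAR 2.7.1a, featureCounts, DESeq2 1.34.0 and cutadapt 1.16 are named among the tools, per the submitters' processing notes; their order, the annotation and the strand setting are not given in the sources used here. Per the labels' protocols, the library kit was directional.

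The test was edgeR 4.0.16 under R 4.3.3 (filterByExpr, TMM, glmQLFit, glmQLFTest, two-sided, Benjamini-Hochberg over 13839 genes). Fold changes are depleted over competent, CPM are TMM-scaled, and SE is the log2 change divided by the square root of F. Coordinates and lengths came from GENCODE M21, an annotation of GRCm38; 31976 identifiers had a symbol, and Arvcf was not analysed here, and 1 gene of the list of other EMT factors is not reported here by name. Alternatives were DESeq2-style and upper-quartile factors, DESeq2 1.42.0, limma-voom (limma 3.58.1), other count filters, a replicate block, leaving out each sample, a loess correction for transcript length, an adjusted p of 0.01 and a test against 1.2-fold. Code was tested on simulated data. Replicates of a group differed beyond sampling noise (chi-square per degree of freedom 5.33 to 9.44). Genes and lists were chosen with earlier results of these data known. Beside the 10 genes and Wdr35, the text names from each list up to 4 genes past the threshold with the largest change and a mean of at least 4 CPM; others were chosen after their values were seen.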

Additional observations from a re-analysis of the deposited data

How the results depend on the processing

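Over 160 values of the 10 genes under alternatives, 150 kept their direction and their side of the threshold, 10 kept the direction but lost the call, all for Zeb2, Cdh1 or Vim, and 0 reversed. The stricter adjusted p of 0.01 and the test against 1.2-fold keep the log2 changes of the main fit, so their values could not reverse. The 150 include all values of Twist1 and Ovol1, which passed the threshold in no setting. Of the 10 genes, 3 rose at an adjusted p below 0.01 and 3 rose in the test against 1.2-fold. Leaving out each sample gave 4 to 5 of the 10 genes higher, 3 lower, 4537 to 4697 of all genes higher and 4389 to 4671 lower, and log2 differences of 0.27 to 0.35 for Cdh1 over Cdh2, 0.25 to 0.40 for Vim over Cdh1, 0.26 to 0.45 for Snai1 over Snai2. In that 1.2-fold test 2945 of all genes were lower. Over all genes, 4161 were higher and 5493 lower with the length trend removed, and 4434 higher and 5236 lower with upper-quartile factors. With the length trend removed, 3 other EMT factor genes rose, 7 catenins and partners fell, 2 intermediate filament genes rose, 3 SNAIL and ZEB partners rose and 10 fell, and 4 SNAIL stability regulators rose and 6 fell. With upper-quartile factors, 6 catenins and partners fell, 0 intermediate filament genes rose (1 with TMM), 3 SNAIL and ZEB partners rose and 5 stability regulators rose. There were 74 calls in the lists by role, with Cdh11 counted in each list that holds it. Of these, the length correction reversed the log2 changes of 7, namely Tcf4 (-0.01), Kdm1a (-0.01), Pak1 (-0.03), Lats2 (-0.05), Cdh6 (-0.09), Smarca4 (-0.10) and Gsk3b (-0.14). Smarca4 and Gsk3b then passed the threshold as lower. It also reversed the medians of the other epithelial regulators (-0.07) and stability regulators (-0.04). The median over all genes moved from -0.01 to -0.06 under that correction, so these medians lie near that of all genes. The cause of the reversals was not tested. The calls of Pak1 and Lats2 were lost on leaving out any single sample for Pak1 (log2 changes 0.08 to 0.11) and, for Lats2, without depleted replicate 2 or 3 or competent replicate 1 or 3 (0.12 to 0.17). Per kilobase of the longest coding transcript, a length chosen after the data were seen, Vim stood at 2.16 and 1.73 times Cdh1 in depleted and competent cells and Zeb1 at 2.63 times Esrp1 in depleted cells. The looser letters CANNTG were found in 72.3% of all windows and in 1 of the 7 windows of these genes, that of Snai1. Deviations of samples that share a replicate number did not correlate (r of -0.0278, 0.0133 and -0.0155), and r was -0.0749 to 0.0917 for unlike numbers. With 3 samples in each group, this cannot settle whether samples of the same number shared an origin. With the replicate numbers as a block, 5 of the 10 genes rose and 3 fell, and 4828 of all genes were higher and 4698 lower. Low counts limit Snai1, Twist1 and Ovol1 most.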
